A study of Mus musculus with 10 samples.

Results

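The 9 genes described here mark the inhibitory neurons of the cortex: Gad1 and Gad2, Slc32a1, Pvalb, Sst, Vip, Npy, Lamp5 and Lhx6. They were chosen by symbol as genes of GABA synthesis, vesicular GABA transport and interneuron class identity. All 9 were among the 15914 genes of the deposited table and among the 14406 that passed the filter on low values. They were measured by bulk RNA sequencing of prefrontal cortex from wild-type (WT) C57BL/6J mice. The hypoxia group (5 libraries) had been exposed to hypobaric hypoxia, that is, to the low oxygen of reduced air pressure. The hypoxia + PBM group (5 libraries) had received photobiomodulation (PBM), a light treatment labelled as laser, after such an exposure. Both groups therefore carry the hypoxic exposure, and no normal-pressure group was analysed here. The labels used here give no age, sex, exposure time, light dose or borders of the dissection. The labels do not tie each library to its own animal, so p-values measure only how these libraries vary, and that variation may be technical.

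Cortical inhibitory neurons make GABA, the main fast inhibitory transmitter of the brain, from glutamate. Gad1 and Gad2 encode the glutamate decarboxylases GAD67 and GAD65, and Slc32a1 encodes VGAT, which loads GABA into synaptic vesicles. The neurons fall into classes by birthplace and by the proteins they carry. Cells born in the medial ganglionic eminence need the transcription factor Lhx6 and become Pvalb cells, which fire fast and act on cell bodies, or Sst cells, which act on dendrites. Cells born in the caudal ganglionic eminence include Vip cells, which mostly inhibit other interneurons, and many Lamp5 cells, which release GABA diffusely. Striatal projection neurons also make GABA and express Gad1, Gad2 and Slc32a1, and the striatum has its own Pvalb, Sst and Npy interneurons.

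None of the 9 genes passed the test between hypoxia + PBM and hypoxia. In the same limma-trend fit on log2(FPKM + 1), 2.85% of all tested genes passed at a Benjamini-Hochberg adjusted p under 0.05. FPKM is a fragment count scaled to gene length and library size. Gad1, the most abundant gene of GABA synthesis, had nearly equal group means: 76.6 ± 3.20 FPKM (SD, n = 5) in hypoxia against 76.3 ± 3.34 FPKM (SD, n = 5) after photobiomodulation. The class markers were spread around it: Lamp5, Vip and Pvalb had higher mean FPKM after photobiomodulation, Sst had a lower one, and Npy and Lhx6 differed by under their SE. At an unadjusted p under 0.05 stood 4 of the 9 (Lamp5, Sst, Vip and Pvalb), where 19.6% of all tested genes did. The groups' libraries overlapped for each of the 9, while they were separate for 5.53% of tested genes. The median log2 change of the 9 was 0.00068, beside 0.00011 over all tested genes, and their median absolute log2 change was 0.084 beside 0.059. All 95% intervals of the 9 changes lay between -0.32 and 0.36 on the log2 scale, that is between 0.799-fold and 1.28-fold. A fit by limma-voom on whole reads recovered from the table called 1 of the 9, Lamp5, with 4.04% of all genes called. In the authors' deposited table Lamp5 was also the member with a q-value under 0.05 (0.0143), where 6.4% of the listed genes had one, and the other 8 had q-values above 0.05 there. In a bulk sample, fewer cells of a type and less RNA per cell cannot be told apart.

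**Figure D1:**
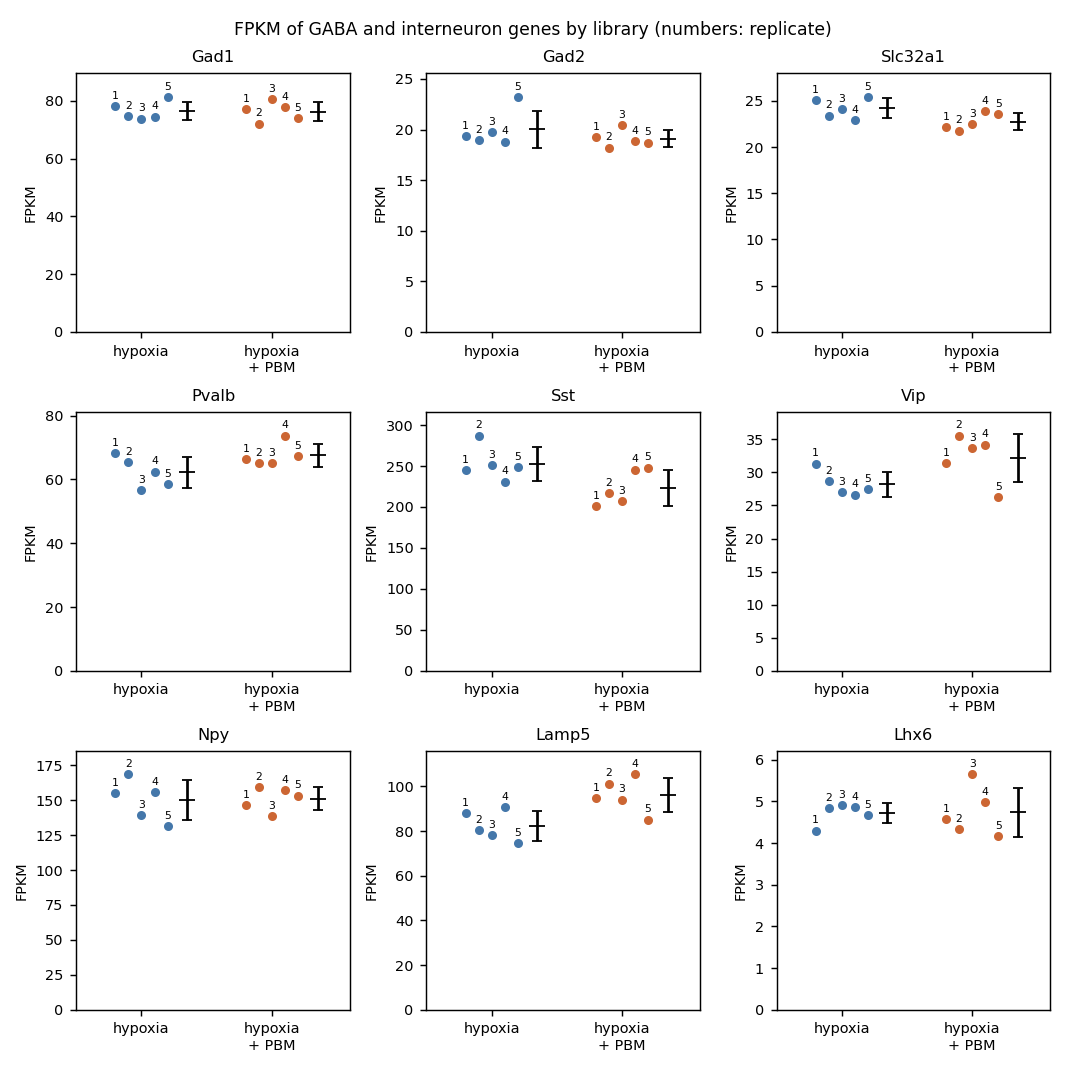
FPKM of each of the 9 genes in every library, with hypoxia in blue and hypoxia + PBM in orange; numbers are replicate numbers and bars are the mean ± SD of 5 libraries. The groups overlap in every panel, and 4 of the 5 hypoxia + PBM libraries lie above all hypoxia libraries for Vip and for Lamp5.

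Reads per library were fewest for Lhx6, between 487 and 748, and most for Gad1, between 11927 and 14753. How much the sampling of reads added to the spread of Lhx6 was not tested. Library totals ran from 29283937 to 35957148 reads over the listed protein-coding genes. The 9 excitatory neuron markers summed to between 2630 and 2787 FPKM in hypoxia and between 2732 and 2890 FPKM in hypoxia + PBM. Their levels were unequal: in hypoxia Camk2a read between 658 and 668 FPKM and Emx1 between 12.9 and 15.0 FPKM. A list of 14 markers of striatal medium spiny neurons differed strongly between the groups, with 13 called lower in hypoxia + PBM and none higher, where 1.7% of all genes were called lower; without hypoxia replicate 1 or 5 the count was 8. Its summed level ran from 346 to 639 FPKM in hypoxia and from 166 to 308 FPKM in hypoxia + PBM, and none of its members was at 0. Its mean log2(FPKM + 1) was 3.96 ± 0.335 (SD, n = 5) in hypoxia against 3.05 ± 0.328 (SD, n = 5) after photobiomodulation, and the groups did not overlap. This shift stands beside every comparison that follows, and the labels do not say how much striatum a sample held. The 14 markers were listed with earlier results of these data known, so their shift is not an independent finding.

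By level, Sst and Npy led. Over the 10 libraries the mean of Sst was 238 FPKM (from 201 to 287), that of Npy 151 FPKM (from 132 to 168) and that of Lamp5 89.3 FPKM (from 74.5 to 105). Gad1 followed with a mean of 76.4 FPKM (from 72.1 to 81.4) and Pvalb with 64.9 FPKM (from 56.7 to 73.7). Lower means belonged to Vip with 30.2 FPKM (from 26.2 to 35.6), Slc32a1 with 23.5 FPKM (from 21.8 to 25.4), Gad2 with 19.6 FPKM (from 18.2 to 23.2) and Lhx6 with 4.73 FPKM (from 4.17 to 5.65). In that order the ranges of the neighbours Lamp5 and Gad1, Gad1 and Pvalb, and Slc32a1 and Gad2 overlapped across libraries. Within a library the order still held in all 10 for each pair of neighbours except Lamp5 and Gad1, where Lamp5 was higher in 9. Sst lay above 98.6% of tested genes in mean FPKM, whereas Lhx6 lay above 47.1%.

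Among the genes of GABA synthesis, Gad1 read 78.2, 74.7, 73.9, 74.5 and 81.4 FPKM in hypoxia replicates 1 to 5 and 77.3, 72.1, 80.6, 77.7 and 73.9 FPKM in hypoxia + PBM replicates 1 to 5. The groups ran through each other, and the log2 change was -0.0049 ± 0.039 (SE; limma adjusted p = 0.962), with a 95% interval from 0.941-fold to 1.06-fold. Gad1 was among the least variable of the 9: its spread within groups was larger than that of only 21.6% of tested genes. Gad2, whose product sits largely at nerve terminals, read 19.4, 19.0, 19.8, 18.8 and 23.2 FPKM in hypoxia and 19.3, 18.2, 20.5, 18.9 and 18.7 FPKM in hypoxia + PBM. Hypoxia replicate 5 stood above all other libraries. The log2 change of Gad2 was -0.062 ± 0.054 (SE; limma adjusted p = 0.568), and without hypoxia replicate 5 it was -0.010. The ratio of Gad1 to Gad2 FPKM, a description chosen after the values were seen, ranged from 3.50 to 4.04 in hypoxia and from 3.94 to 4.12 after photobiomodulation.

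The vesicular transporter Slc32a1 read 25.1, 23.4, 24.1, 22.9 and 25.4 FPKM in hypoxia and 22.1, 21.8, 22.5, 23.9 and 23.5 FPKM in hypoxia + PBM. In hypoxia + PBM 3 libraries lay below the lowest hypoxia library and the other 2 lay within the hypoxia range. Its log2 change was -0.084 ± 0.039 (SE; limma adjusted p = 0.263), an interval from 0.889-fold to 1.00-fold. In the GENCODE M21 annotation, 24.9% of the exon bases of Slc32a1 also lie in an exon of an antisense gene, Gm14205, and the strand setting of the counting is not given, so their reads cannot be told apart. When the striatal marker mean was added as a covariate, the log2 change of Slc32a1 was 0.026 ± 0.065 (SE), and that of Gad1 was -0.017 ± 0.073 (SE). For Gad2 it was -0.020 ± 0.10 (SE). That mean separates the groups without overlap, so its share and the group's cannot be told apart, and the median standard error of the 9 genes grew 1.87 times in that fit.

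**Figure D2:**
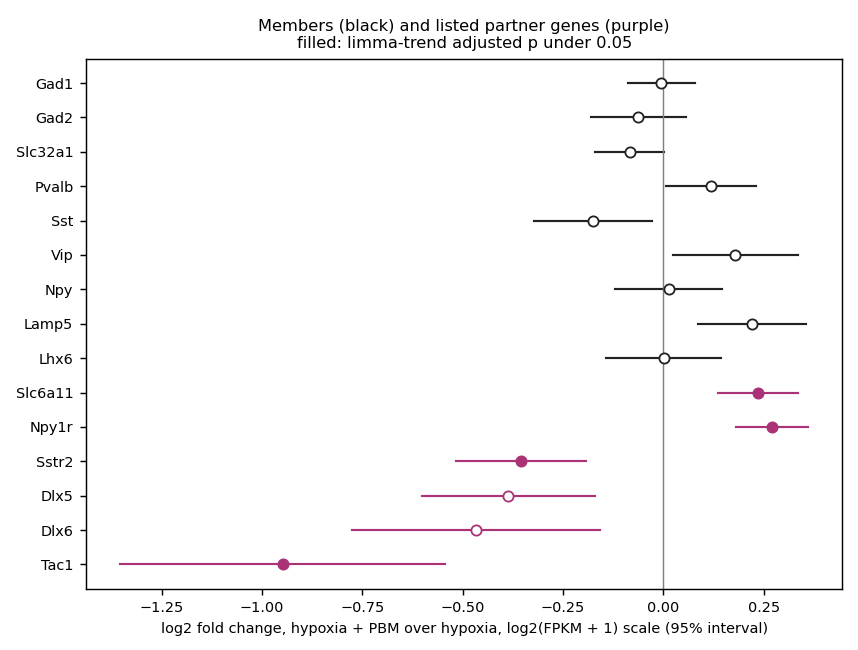
Difference in log2(FPKM + 1), hypoxia + PBM minus hypoxia, with 95% limma intervals, for the 9 genes in black and for 6 partner genes from fixed lists in purple; filled points passed at an adjusted p under 0.05. All black points are open, with Lamp5 farthest to the right at 0.22 and Sst farthest to the left at -0.18.

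None of the 3 genes of the medial eminence lineage, Lhx6, Pvalb and Sst, passed the test. Lhx6, the factor that specifies this lineage, read 4.30, 4.83, 4.91, 4.87 and 4.68 FPKM in hypoxia and 4.57, 4.33, 5.65, 4.99 and 4.17 FPKM in hypoxia + PBM. The hypoxia + PBM libraries lay on both sides of the hypoxia range, and the log2 change was 0.00068 ± 0.067 (SE; limma adjusted p = 0.997). Pvalb, a calcium buffer of fast-spiking cells, read 68.3, 65.3, 56.7, 62.4 and 58.4 FPKM in hypoxia and 66.4, 65.2, 65.2, 73.7 and 67.3 FPKM in hypoxia + PBM. All 5 hypoxia + PBM libraries lay above the hypoxia median of 62.4 FPKM, but only replicate 4 lay above the highest hypoxia library. The log2 change of Pvalb was 0.12 ± 0.052 (SE), with an unadjusted p of 0.0401 and an adjusted p of 0.229 by limma. It was 0.11 ± 0.098 (SE) with the striatal mean as a covariate.

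Sst, the precursor of somatostatin, read 245, 287, 251, 231 and 249 FPKM in hypoxia and 201, 217, 207, 246 and 248 FPKM in hypoxia + PBM. Replicates 1, 2 and 3 of hypoxia + PBM were the lowest of all 10 libraries, while replicates 4 and 5 lay inside the hypoxia range. The log2 change of Sst was -0.18 ± 0.068 (SE), with an unadjusted p of 0.0224 and an adjusted p of 0.175 by limma, and an interval from 0.799-fold to 0.980-fold. With the striatal mean as a covariate it was -0.022 ± 0.12 (SE). The ratio of Sst to Pvalb FPKM, a description chosen after the values were seen, was 4.07 ± 0.402 (SD, n = 5) in hypoxia against 3.31 ± 0.247 (SD, n = 5) after photobiomodulation. For this ratio 4 of the 5 hypoxia + PBM libraries lay below the lowest hypoxia library.

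Vip and Lamp5, which mark classes of the caudal eminence, had higher mean FPKM after photobiomodulation, and neither passed the test. Vip, the precursor of vasoactive intestinal peptide, read 31.3, 28.7, 27.0, 26.6 and 27.5 FPKM in hypoxia and 31.4, 35.6, 33.6, 34.2 and 26.2 FPKM in hypoxia + PBM. The first 4 hypoxia + PBM replicates lay above every hypoxia library, replicate 1 narrowly, and replicate 5 lay below every one. The log2 change of Vip was 0.18 ± 0.072 (SE), with an unadjusted p of 0.0271 and an adjusted p of 0.191 by limma. Without hypoxia + PBM replicate 5 its log2 change was 0.25, and Vip passed with a limma adjusted p of 0.0274. Over all libraries the log2 change of Vip was 0.12 ± 0.13 (SE) with the striatal mean as a covariate.

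Lamp5, a membrane protein of the LAMP family that is carried by neurogliaform interneurons and also by some excitatory cells of the cortex, read 88.0, 80.5, 78.2, 90.7 and 74.5 FPKM in hypoxia. In hypoxia + PBM it read 94.97, 101, 94.1, 105 and 85.2 FPKM. Again the first 4 hypoxia + PBM replicates lay above every hypoxia library and replicate 5 lay within their range. The log2 change of Lamp5 was 0.22 ± 0.062 (SE; limma adjusted p = 0.0779), with an interval from 1.06-fold to 1.28-fold. Lamp5 passed when hypoxia replicate 4 or hypoxia + PBM replicate 5 was left out (limma adjusted p = 0.0410 and 0.0353), and in none of the other 8 such fits. The adjusted p was 0.0479 by limma-voom on the recovered reads. With the striatal mean as a covariate the log2 change was 0.10 ± 0.11 (SE). The excitatory neuron markers had positive estimates in 8 of 9 cases, with a list median of 0.089 and no call. Camk2a, a kinase subunit of excitatory cells, did not overlap between the groups and passed by limma-voom (adjusted p = 0.0233), and Emx1, a cortical transcription factor, passed with a minimum of 1 FPKM (limma adjusted p = 0.0409) and with median-ratio scaling (limma adjusted p = 0.0488). Their part in the Lamp5 value was not tested.

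Npy, the precursor of neuropeptide Y, is made by Sst cells and by neurogliaform cells. It read 155, 168, 139.5, 156 and 132 FPKM in hypoxia and 147, 159, 139, 157 and 153 FPKM in hypoxia + PBM. All hypoxia + PBM libraries lay inside the hypoxia range, and the log2 change was 0.013 ± 0.062 (SE; limma adjusted p = 0.933).

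**Figure D3:**
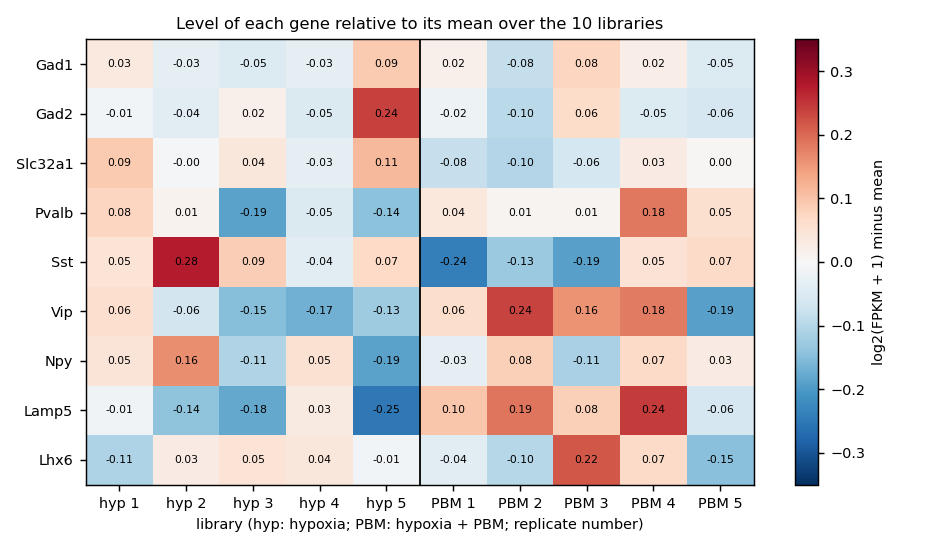
Level of each of the 9 genes in each library as log2(FPKM + 1) minus that gene's mean over the 10 libraries, with hypoxia left of the line and hypoxia + PBM right of it. All values lie between -0.25 and 0.28, and the columns do not share one colour: hypoxia replicate 5 is high in Gad2 and low in Lamp5 and Npy, and hypoxia + PBM replicate 5 is low in Vip.

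The Sst and Vip promoters are shown because these peptide genes had estimates of opposite sign and because both are textbook targets of the activity-regulated factor CREB, which binds the letters TGACGTCA or the shorter TGACG. The sequences are the 120 bases before the annotated gene start, from RefSeq on GRCm38.p6, an older build than the GRCm39 named for these data. Sst lies on the minus strand at chr16:23890845-23890964 and Vip on the plus strand at chr10:5639098-5639217, and capitals mark the motif.
Sst: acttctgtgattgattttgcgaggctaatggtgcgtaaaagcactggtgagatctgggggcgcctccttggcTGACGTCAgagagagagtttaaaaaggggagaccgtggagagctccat
Vip: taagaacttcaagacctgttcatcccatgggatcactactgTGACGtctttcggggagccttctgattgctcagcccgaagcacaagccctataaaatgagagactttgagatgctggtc
The Sst promoter holds the full motif 48 bases before the start, and the Vip promoter holds the short one 79 bases before it. In the 250 bases before each start, read on both strands, TGACGTCA occurred in 1.55% of 32851 promoters and in 1 of the 13 promoters of the 9 genes. The short TGACG, which the longer motif contains, occurred in 17.8% of all promoters and in 3 of the 13, those of Sst, Vip and Gad2. A match describes these letters and not the binding of a factor.

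No variation shared by the 9 genes was seen from library to library, though with 10 libraries only strong correlations could pass. Deviations from the group means were compared over the 10 libraries in all 36 pairs, of which 19 had a positive and 17 a negative Pearson r. After Benjamini-Hochberg adjustment over the 36 pairs 1 passed, Gad2 with Npy, which ran opposite to each other (r = -0.859, two-sided exact permutation within groups, p = 0.000764, adjusted p = 0.0275). Its Spearman rho was -0.855 (exact permutation p = 0.00396, adjusted p = 0.142), and without the 2 libraries farthest from the median of Gad2 r was -0.726. Gad1 and Gad2 had r = 0.804 (exact permutation p = 0.005, adjusted p = 0.09) and rho = 0.564 (exact permutation p = 0.103, adjusted p = 0.616). Without the 2 libraries farthest from the median of Gad1 their r was 0.487. Over 11393 genes with a mean of at least 1 FPKM, the 3 genes whose deviations over the 10 libraries were most like those of each member had r from 0.895 to 0.983. These were searched for among many genes in 10 libraries that share their group means, and no p is given. Nearest to Gad1 was Naa25, to Gad2 Bach1, to Slc32a1 Gatad1, to Pvalb Pard6a and to Sst Slc7a6os. Nearest to Vip was Ddrgk1, to Npy Gpn1, to Lamp5 Tmem192 and to Lhx6 Eml6. No gene of the 9 appeared among the 3 nearest of another, and the neuropeptide Y receptor gene Npy5r was among the 3 nearest to Lamp5.

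Beyond the 9 genes, 11 genes of GABA uptake, breakdown and chloride handling were read as a fixed list. Of these 9 had positive estimates, 1 was called higher and none was called lower, where 1.15% of all tested genes were called higher. The median log2 change was 0.12 beside 0.00011 for all tested genes. An unadjusted p under 0.05 by limma was found for 7 of the 11, where 19.6% of all tested genes had one. The list had 3 calls by limma-voom, 2 with no filter on low values, and 0 to 2 without single libraries: 0 without hypoxia replicate 1 or 5 or hypoxia + PBM replicate 1, and 2 without hypoxia + PBM replicate 2 or 5. The gene called by limma-trend was Slc6a11, which encodes GAT-3, the GABA transporter of astrocytes. It read 27.1, 27.0, 29.7, 30.3 and 27.6 FPKM in hypoxia and 34.2, 31.4, 36.3, 32.2 and 33.7 FPKM in hypoxia + PBM. The groups did not overlap, and Slc6a11 rose by 0.24 ± 0.046 on the log2 scale (SE; limma adjusted p = 0.0187). Leaving out single libraries in turn, it stayed called in 7 of 10 fits and lost the call without hypoxia replicate 1 or 5 or hypoxia + PBM replicate 1 (limma adjusted p = 0.0508, 0.0510 and 0.0513). With the striatal mean as a covariate its log2 change was 0.12 ± 0.078 (SE; limma adjusted p = 0.902). Of 5 astrocyte markers in the same libraries 1 was called higher, Aldh1l1 with a log2 change of 0.27 (limma adjusted p = 0.00481), while Aqp4, Gja1 and Gfap had negative estimates; their summed level was 225 to 258 FPKM in hypoxia and 213 to 254 FPKM after photobiomodulation, and their part in the Slc6a11 value was not tested. The chloride exporter Slc12a5, or KCC2, which sets the direction of GABA currents, had an estimate of 0.17 on the log2 scale (limma adjusted p = 0.112). Smaller limma adjusted p, still above 0.05, belonged to Aldh5a1, Slc6a13 and Slc6a12, with positive estimates, and to Glul. Glul, 1 of the 2 genes with a negative estimate, was at -0.12 (limma adjusted p = 0.0979), and its groups did not overlap. Those of Slc6a12 did not overlap either, with means of 0.103 FPKM in hypoxia and 0.209 FPKM in hypoxia + PBM. Slc6a12 was near the filter on low values, with 7 to 31 reads per library. Slc6a13 had means of 1.37 FPKM in hypoxia and 2.08 FPKM in hypoxia + PBM, with overlap.

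Receptors for the peptides of these classes gave 1 call in each direction among 8 tested genes, with a median log2 change of 0.077. Of all tested genes 2.85% were called in either direction. An unadjusted p under 0.05 by limma was found for 3 of the 8, where 19.6% of all tested genes had one. Npy1r, the Y1 receptor for neuropeptide Y, read 5.77, 5.97, 5.83, 5.61 and 5.83 FPKM in hypoxia and 6.80, 7.72, 7.35, 7.05 and 7.13 FPKM in hypoxia + PBM. The groups were well apart, and Npy1r rose by 0.27 ± 0.042 on the log2 scale (SE; limma adjusted p = 0.00709), which passed whichever library was left out. With the striatal mean as a covariate its log2 change was still 0.27 ± 0.080 (SE), although no gene of the table passed in that fit (limma adjusted p = 0.613 for Npy1r). Sstr2, a main somatostatin receptor of the cortex, read 7.86, 8.72, 9.12, 8.73 and 10.5 FPKM in hypoxia and 6.32, 6.53, 6.29, 6.79 and 8.12 FPKM in hypoxia + PBM. The first 4 hypoxia + PBM replicates lay below every hypoxia library and replicate 5 lay within the hypoxia range. Sstr2 fell by 0.36 on the log2 scale, with an SE of 0.075 (limma adjusted p = 0.0249), and stayed called in 5 of 10 fits without a single library. It lost the call without hypoxia replicate 3 or 5 or hypoxia + PBM replicate 1, 2 or 3, with limma adjusted p from 0.0514 to 0.0660. The other somatostatin receptor genes tested, Sstr1, Sstr3 and Sstr4, had log2 changes of 0.15, 0.046 and -0.021 and did not pass. With the striatal mean as a covariate the log2 change of Sstr2 was -0.16 ± 0.13 (SE).

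**Figure D4:**
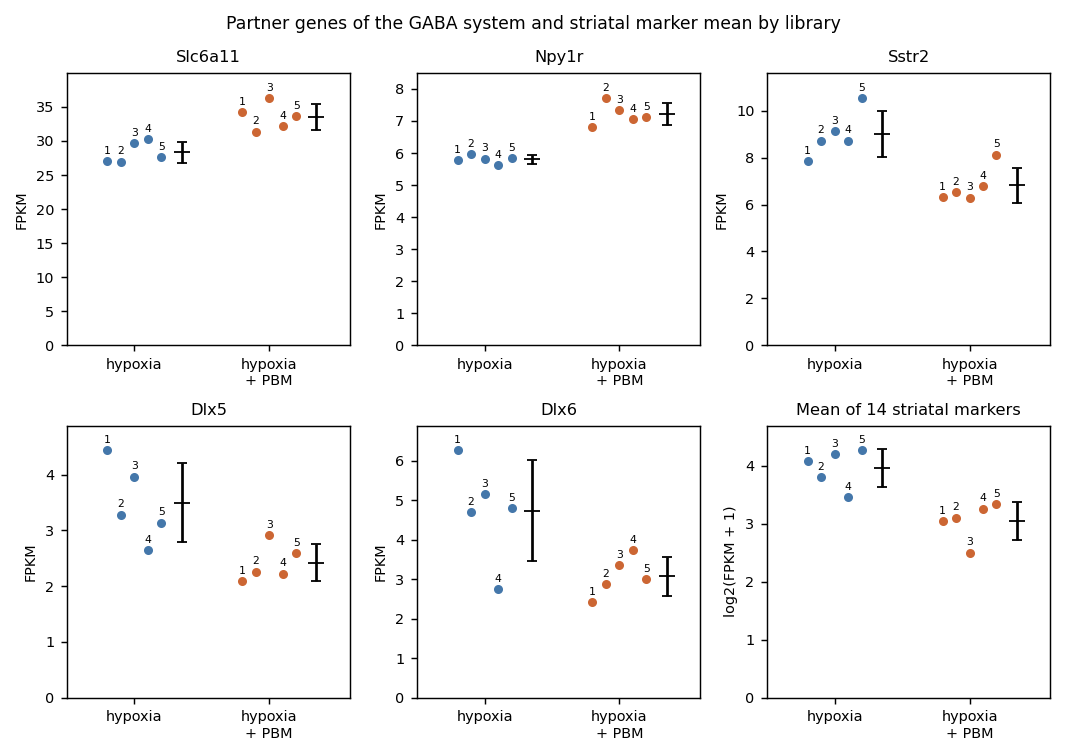
FPKM of 5 partner genes and the mean log2(FPKM + 1) of 14 striatal markers in every library, with hypoxia in blue and hypoxia + PBM in orange; numbers are replicate numbers and bars are the mean ± SD of 5 libraries. Slc6a11, Npy1r and the striatal mean separate the groups, and hypoxia replicate 4 is the lowest hypoxia library in Dlx5, Dlx6 and the striatal mean.

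None of 15 tested transcription factors of the interneuron lineage was called (median log2 change 0.030). An unadjusted p under 0.05 by limma was found for 5 of the 15, where 19.6% of all tested genes had one. The 2 with the smallest p were the homeobox genes Dlx5 and Dlx6, which act in the birth of forebrain GABA neurons and are also used in the striatum. Dlx5 read 4.43, 3.28, 3.96, 2.65 and 3.14 FPKM in hypoxia and 2.09, 2.26, 2.91, 2.22 and 2.59 FPKM in hypoxia + PBM. Its estimate was -0.39 ± 0.10 on the log2 scale (SE; limma adjusted p = 0.0584). Dlx5 passed with a minimum of 1 FPKM (limma adjusted p = 0.0452). For Dlx6 the estimate was -0.47 ± 0.14 (SE; limma adjusted p = 0.0991), and 4.38% of its exon bases overlap a gene on the opposite strand in GENCODE M21. Their family members Dlx1 and Dlx2 were at 0.0068 and 0.030. Hypoxia replicate 4 was the lowest hypoxia library for Dlx5, for Dlx6 and for the striatal mean, and without it both genes passed (limma adjusted p = 0.0188 and 0.00560). With that mean as a covariate the log2 changes were -0.30 ± 0.19 for Dlx5 and -0.087 ± 0.24 for Dlx6 (SE).

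Other markers of the 4 classes gave 1 call among 29 tested genes, a share near the 2.85% of all tested genes. That call was Tac1, the substance P precursor, which some Pvalb cells carry and which is also one of the 14 striatal markers. It read 39.1, 33.6, 42.9, 21.1 and 43.0 FPKM in hypoxia and 16.2, 17.2, 12.4, 21.9 and 22.2 FPKM in hypoxia + PBM, and fell by 0.95 on the log2 scale with an SE of 0.19 (limma adjusted p = 0.0192). It stayed called in 7 of 10 fits without a single library, losing the call without hypoxia replicate 1 or 5 or hypoxia + PBM replicate 1 (limma adjusted p from 0.0505 to 0.0516). The other 7 markers of the Pvalb class had positive estimates from 0.018 for the peptide gene Pthlh to 0.23 for the fast-firing potassium channel Kcnc2, and none passed. Of the 8 genes of the Pvalb list, Tac1 included, 6 had an unadjusted p under 0.05 by limma, where 19.6% of all tested genes did. In the Sst list, the Vip and Cck list and the Lamp5 list 1, 0 and 1 of 7 did. Among 7 markers of the Sst class none passed (median 0.076), although Sst itself had a negative estimate: the closest were the synaptic adhesion gene Elfn1 at 0.21 and the calcium buffer Calb1 at 0.087. The Vip and Cck list of 7 genes (median 0.085) also gave no call, with Cck at 0.085 and Calb2 at 0.19. Among 7 further markers of the Lamp5 class none passed (median -0.0069), with the secreted glycoprotein Reln at 0.23 (limma adjusted p = 0.109) and the vesicle protein Sv2c at -0.12. Reln passed without hypoxia replicate 5 (limma adjusted p = 0.0410).

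Markers of other cells complete the setting. Among 6 cholinergic markers, 3 were called lower (Isl1, Slc5a7 and Chat, log2 changes -0.26, -0.37 and -0.44), where 1.7% of all tested genes were. These calls were not stable: leaving out single libraries in turn, Isl1 stayed called in 5 of 10 fits, Slc5a7 in 4 and Chat in 2, and the list had no call with the replicate block or without hypoxia replicate 1 or hypoxia + PBM replicate 1, 2 or 3. The list summed to at most 4.08 FPKM in hypoxia and at most 1.58 FPKM after photobiomodulation. Among 6 tested genes of the olfactory bulb and migrating neuroblasts 1 was called in each direction, where 2.85% of all tested genes were called in either. Pcp4l1 fell by 0.51 on the log2 scale and stayed called in 10 of 10 fits without a single library. Dcx had a log2 change of 0.28 and stayed called in 3 (limma adjusted p up to 0.0717). Among 5 endothelial markers 2 were called higher, where 1.15% of all tested genes were. Cldn5 rose by 0.37 and stayed called in 10 of 10 fits, while Tek had a log2 change of 0.28 and stayed called in 3. Tek lost the call with the replicate block (limma adjusted p = 0.0567) and with no filter on low values (limma adjusted p = 0.0529). None of 5 oligodendrocyte markers (median -0.12) and none of 5 microglial markers (median -0.017) passed. Their part in the values of the 9 genes was not tested.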

How the data were processed

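RNA from 10 prefrontal cortex samples of mice was sequenced, 5 per group. The submitters' processing notes name fastp 1.0, HISAT2, HTSeq and GRCm39. Per the file headers, the authors deposited FPKM per library, group means of normalised counts from DESeq2 (a signal scaled by size factors), and their own fold change (a ratio), log2 fold change, p-value and q-value per gene; settings are not stated. No raw counts were used here. Whole reads were recovered from FPKM and the deposited group means; 100% of values above 0 lay within 0.01 of a whole number.

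Genes with at least 0.1 FPKM in at least 5 libraries (14406 of 15914) were tested on log2(FPKM + 1), pseudocount 1, with limma 3.58.1 (trend, R 4.3.3), group as the only term, and Benjamini-Hochberg adjustment over all of them; an adjusted p under 0.05 was a call. A fold change on this scale understates that of low genes. The fit was checked on simulated data. Replicate pairs of a group differed by more than sampling noise (chi-square 5.97 to 13.8 per gene).

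Named were all 9 genes, up to 4 called genes of each fixed list (or the 2 with the smallest p), and the 3 nearest genes of each member. Further list genes named in the text, and the ratios, were chosen after their values were seen. Members and lists were chosen with earlier results of these data known. Replicate numbers are not used as pairs in the main fit. The values of 1 list gene are not reported here.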

Additional observations from a re-analysis of the deposited data

Results flagged for a closer look

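In groups of 5 libraries, 6 of 78 groups of values held a library far from the other 4 (the gap to its nearest neighbour exceeded Dixon's critical share of 0.71 of the range), where chance gives about 1 in 20. Among the 9 genes these were Gad2 in hypoxia replicate 5, at 23.2 FPKM with the next library at 19.8, and Pvalb in hypoxia + PBM replicate 4, at 73.7 FPKM with the next at 67.3. Among list genes, Sstr2 stood at 8.12 FPKM in hypoxia + PBM replicate 5 (next 6.79), Calb2 at 14.7 FPKM in hypoxia + PBM replicate 3 (next 9.49), Gpr6 at 0.986 FPKM in hypoxia + PBM replicate 3 (next 2.57) and Dcx at 1.63 FPKM in hypoxia + PBM replicate 2 (next 2.03).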

How the results depend on the processing

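The number of the 9 genes called was 0, and it was 1 (Lamp5) by limma-voom on the recovered reads and 1 (Lamp5, adjusted p = 0.0347) with the replicate number as a block, and 0 to 2 when single libraries were left out. Over all alternatives the log2 change of Lamp5 lay between 0.10 and 0.26. Over all genes, 411 were called, 256 with the replicate block, 0 with the striatal marker mean as a covariate, and 200 to 538 without single libraries; the count fell by over 1.5 times without hypoxia replicate 1 (200), 2 (265) or 5 (210) or hypoxia + PBM replicate 1 (210), 2 (268) or 3 (221). Of the GABA, interneuron and receptor lists 4 genes were called, 0 with the covariate, and 1 to 6 without single libraries. Same-numbered libraries deviated together in 1 of 5 cases (correlations -0.0721 to 0.205). With 5 such cases a weak pairing could go unseen, so this check does not settle whether the numbers pair the samples. With the covariate the sign turned for Slc32a1 (0.026), Npy (-0.029), Lhx6 (-0.19), Tac1 (0.043; it is itself part of that mean), Calb2 (-0.12), Sv2c (0.065), Chat (0.021) and Aif1 (0.43). Lhx6 was at -0.00020 with a pseudocount of 0.1 and at -0.00088 by limma-voom. Leaving out single libraries turned the sign of Gad1 (-0.024 to 0.017), Npy (-0.032 to 0.056), Lhx6 (-0.054 to 0.037) and Aif1 (-0.15 to 0.051). The cause was not tested. The alternatives for pairs of the 9 genes were chosen after seeing the data and left 1 pair past the threshold in each.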
